A study of Mus musculus with 4 samples.

Results

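The genes described here are 36 genes of protein folding and stress in the endoplasmic reticulum, taken by symbol from a list and found, all 36 of them, among the 31053 genes of the count matrices. They comprised 11 chaperones and co-chaperones, 5 disulfide isomerases, a group of 4 with 1 prolyl isomerase and 3 translocation genes, 7 genes of degradation, 5 sensors and transcription factors, and 4 targets of Atf4. They were measured in single cells of wild-type C57BL/6 mouse pancreas after saline (S2D and S6W) or caerulein (C2D and C6W), with 2 days (S2D, C2D) or 6 weeks (S6W, C6W) of recovery. Caerulein mimics cholecystokinin, and an excess of it injures acinar cells and brings on acute pancreatitis. The labels give neither the age of the mice nor the number per library. Each group was 1 library of DAPI-negative sorted cells from the 10x Genomics 3′ assay, so no difference could be tested against the spread between mice. Every interval below is exact, at 95%, and covers counting error only.

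Secreted proteins enter the reticulum through the translocon, where chaperones such as Hspa5 hold them and disulfide isomerases join their cysteines. Chains that do not fold are drawn back to the cytosol and destroyed by the degradation genes (Derl, Sel1l, Syvn1, Edem1, Herpud1). When unfolded chains build up, the sensors Ern1, Atf6 and Eif2ak3 act. Ern1 splices the mRNA of Xbp1, Atf6 is cut to a transcription factor, and Eif2ak3 (PERK) slows translation while that of Atf4 rises, and Atf4 in turn induces Ddit3 (CHOP), Trib3, Chac1 and Asns. The counts do not separate spliced from unspliced Xbp1, and they measure mRNA, not the activity of a sensor. Acinar cells, which make digestive enzymes, and plasma cells, which make antibodies, are both known for an extensive reticulum.

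Short stretches of the promoters are shown because they carry the elements through which these pathways are known to act. They come from RefSeq (GRCm38.p6), whose windows from 250 bases before to 50 bases after the transcription start were held for 31 of the 36 genes. The endoplasmic reticulum stress element, ERSE, is CCAAT, 9 bases and CCACG, and is a site for Atf6 and Xbp1 together with NF-Y. With both strands searched, it was found in windows of 9 of these 31 genes and of 37 of 27025 genes in all (0.137%). The matches are printed 5′ to 3′ on the strand that carries the element, with CCAAT and CCACG in capitals.

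Hspa5: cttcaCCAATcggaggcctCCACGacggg

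Hsp90b1, first match: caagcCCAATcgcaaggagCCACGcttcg

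Hsp90b1, second match: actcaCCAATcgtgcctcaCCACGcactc

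Calr: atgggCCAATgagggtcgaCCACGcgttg

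Canx: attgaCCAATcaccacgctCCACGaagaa

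Creld2: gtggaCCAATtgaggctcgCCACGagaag

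Dnajc3: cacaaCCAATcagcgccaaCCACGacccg

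Pdia6: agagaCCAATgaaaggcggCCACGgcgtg

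Derl3: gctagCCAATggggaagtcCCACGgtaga

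Syvn1: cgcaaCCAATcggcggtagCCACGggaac

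The Hspa5 match is at chr2:34772020-34772048, on the plus strand, and the Derl3 match at chr10:75893237-75893265, on the minus strand. ERSE-II (ATTGG, 1 base, CCACG) was found for 2 of the 31, Herpud1 and Dnajb11, against 0.0444% of all genes. The amino acid response element (TGATG, 1 base, AA), which Atf4 binds, was found for 4 of the 31 against 4.51% of all genes. These 4 were Herpud1 and the 3 Atf4 targets Asns, Chac1 and Trib3, of which the Trib3 match lay after the start and is given without flanks.

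Herpud1, ERSE-II: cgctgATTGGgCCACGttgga

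Asns, amino acid response element: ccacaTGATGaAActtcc

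Chac1, amino acid response element: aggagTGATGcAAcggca

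Trib3, amino acid response element: TGATGtAA

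A match is a description of the letters, not evidence of binding. The full UPRE (TGACGTGG) was in none of the 31 windows and in those of 0.714% of all genes.

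The 4 matrices held 2623 to 5433 barcodes and 29145886 to 71547194 UMIs each, and 2017 to 4637 cells of each were kept. Pairs of libraries shared 3 to 22 barcodes. The 33 clusters gave 17 classes with marker-based names, and no member of the list was a marker or took part in the clustering. Names mean marker-like: digestive genes made up 85.8% (S2D), 41.7% (C2D), 86.3% (S6W) and 82.5% (C6W) of the UMIs of acinar-like cells, and immunoglobulin genes 41.8% of those of plasma-like cells at S2D. Acinar-like cells numbered 430, 772, 448 and 363 in S2D, C2D, S6W and C6W, and plasma-like cells 102, 4, 9 and 28, so plasma-like levels are given for S2D and C6W. The C2D acinar-like cells were clusters 17 (384 cells) and 31 (383 cells) but for a few, whereas 412 of those of S2D were in cluster 5, so cluster and library cannot be told apart.

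Because digestive messages fill an acinar cell to such different extents, a level here is the number of UMIs per 1000000 UMIs of genes other than digestive ones, in all cells of a class in a library. A 3′ UMI counts a molecule once whatever its length, but capture can differ between genes, so levels are compared across cells and not between genes. On plain CPM (per 1000000 of all UMIs), every acinar-like log2 ratio of C2D over S2D is higher by the same amount, since digestive genes had 10980 UMIs per cell at S2D and 5436 at C2D, and other genes 1811 and 7593. Direction in that comparison therefore depends on the scale, and the CPM value stands beside it. Comparisons with the median of all genes, and shares within the 36 genes, do not depend on it.

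Acinar-like cells, outside C2D, and plasma-like cells gave more of their non-digestive message to these 36 genes than other classes did. In acinar-like cells they took 2.61% (2.58 to 2.65%) of non-digestive UMIs at S2D, 0.6998% (0.693 to 0.7065%) at C2D, 2.94% (2.91 to 2.97%) at S6W and 2.36% (2.32 to 2.39%) at C6W. The C2D value stands apart and lies within the range of fibroblast-like cells (0.617 to 0.984%), while the other 3 run from 2.36 to 2.94%. Of all UMIs, digestive ones included, the shares were 0.370, 0.408, 0.402 and 0.412%, which differ little. Plasma-like cells stood at 2.25% (S2D) and 1.82% (C6W), or 3.88 and 3.02% once immunoglobulin genes were left out. They held 796 and 894 UMIs of these genes per cell, against 47.3, 53.1, 69.8 and 42.1 in acinar-like cells. Plasmacytoid dendritic-like cells reached 1.013% in the 1 library that had enough of them. Ductal-like cells lay at 0.537 to 0.592%, macrophage or monocyte-like cells at 0.436 to 0.578%, B-like cells at 0.359 to 0.503% and T-like cells at 0.382 to 0.459%, ranges that overlap in part.

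Which roles made up those UMIs differed between the secretory classes, and between C2D and the other acinar-like libraries. Disulfide isomerases gave 44.9% (S2D), 14.99% (C2D), 51.7% (S6W) and 48.1% (C6W) of the members' UMIs in acinar-like cells, and 12.0% (S2D) and 12.3% (C6W) in plasma-like cells. Pdia2, a disulfide isomerase of the pancreas, gave 29.8% (S2D), 2.60% (C2D), 38.9% (S6W) and 32.2% (C6W) in acinar-like cells, most of the isomerase share outside C2D, and 0.036 and 0.016% in plasma-like cells. Chaperones and co-chaperones gave 21.0, 30.1, 18.9 and 20.4% in acinar-like cells but 56.3 and 55.1% in plasma-like cells. The sensors and transcription factors took 3.83, 14.4, 3.94 and 4.37% of acinar-like member UMIs, highest at C2D, and the Atf4 targets 2.54, 6.46, 2.24 and 1.98%. Degradation genes ran from 9.44% (C2D) to 12.9% (S2D) there. In ductal-like cells, by contrast, the disulfide isomerases took 12.4 to 15.1% and the sensors 13.1 to 15.9% in all 4 libraries.

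**Figure D1:**
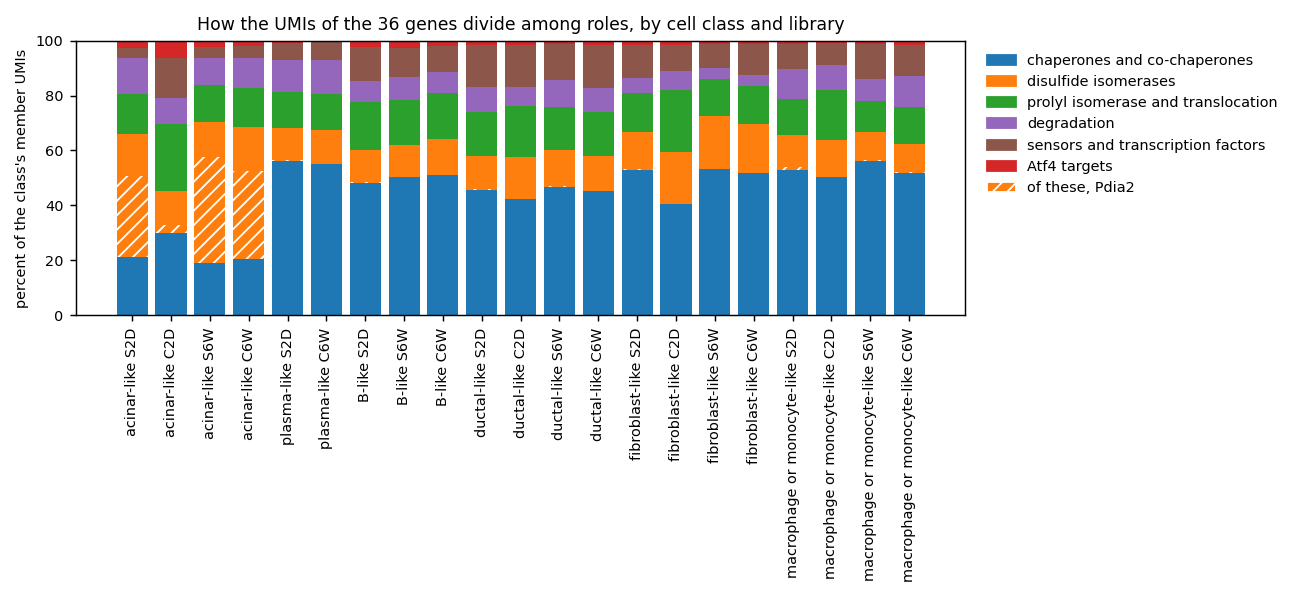
Share of the UMIs of the 36 genes given by each role (stacked bars, percent) in each cell class and library. Acinar-like cells of S2D, S6W and C6W have a large disulfide isomerase part (44.9 to 51.7%), which is 14.99% at C2D, and plasma-like cells are led by chaperones (56.3 and 55.1%).

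The first comparison asked how the genes differed in acinar-like cells 2 days after caerulein. On the non-digestive scale 21 of 35 measured members (at least 100 UMIs over both libraries) were at least 2-fold lower in C2D and 2 at least 2-fold higher, with a median log2 ratio of -1.16. On plain CPM it was 14 higher and 2 lower, with a median of 0.88, so the sign turns. That scale also put 4753 of all 5120 genes at least 2-fold higher and 27 lower. The part of the members that was higher on it was thus smaller than that of all genes. The counts by role below are to be read against the counts of all genes on the same scale. Of all 5120 genes measured, 7.56% were at least 2-fold lower and 30.5% higher on the non-digestive scale, with a median of 0.52 (0.25 with TMM and 2.56 on plain CPM). Set against that median, which any scale allows, 33 of the 35 members were below it and 26 of them at least 2-fold below. The minimum of 100 UMIs is over both libraries and C2D holds most of the UMIs, so genes low in S2D pass only through C2D, Ddit3 and Trib3 among them, and these raise the median of all genes. With genes chosen instead by at least 100 UMIs in S6W, which has no part in the comparison, 26 members remained, without Ddit3 and Trib3. Of these, 18 were at least 2-fold lower and none higher, with a median of -1.28, against 22.2% lower and 9.76% higher of 922 genes with a median of -0.12. In that set 23 of the 26 members were below the median of all genes and 16 at least 2-fold below. Over S2D and C2D together, only the sensor Ern1 fell short of 100 UMIs. These are bulk sums over a class, in which fewer cells of a kind and less RNA per cell cannot be told apart.

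The disulfide isomerases held the largest difference. Pdia2 (ENSMUSG00000024184, chr17:26195999-26199087, GRCm38) had a level of 7785 at S2D, 182 at C2D, 11430 at S6W and 7589 at C6W. The C2D library alone was low, 42.8-fold below S2D (log2 -5.42, -5.52 to -5.33; -3.38 under plain CPM). Cells with a Pdia2 UMI were 96.5% of acinar-like cells at S2D and 50% at C2D, against 11.5 and 0% of T-like cells, which should lack it (0 of 103 cells, where a limit of 3 counts gives 2.91%). With cells thinned to 1000 UMIs, digestive ones included, these acinar-like shares were 70.9 and 11.9%. P4hb, the isomerase that is also a subunit of prolyl hydroxylase, had levels of 2907, 488, 2741 and 2858 (log2 -2.58, -2.66 to -2.50; -0.53 under plain CPM). Pdia6, which also acts on disulfide bonds, stood at 804, 187, 795 and 657 (log2 -2.11; -0.07 under plain CPM). Pdia3, the isomerase that acts on glycoproteins, had nearly equal levels of 143, 153, 148 and 139 (log2 0.10, but 2.14 under plain CPM). Pdia4 had levels of 73.2, 40.4, 86.6 and 70.8 (log2 -0.86, but 1.18 under plain CPM). The isomerases thus ranged over more than 5 log2 units.

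Among the chaperones and co-chaperones, 8 of 11 were at least 2-fold lower and none higher on the non-digestive scale (3 higher and none lower under plain CPM). Of the 11, 10 were at least 2-fold below the median of all genes chosen over both libraries (0.52). Hspa5, Calr and Canx were less than 2-fold below the median of genes chosen by S6W (-0.12). Sdf2l1, a cofactor of Hspa5, had levels of 487 (S2D), 86.2 (C2D), 509 (S6W) and 265 (C6W). It was 5.65-fold lower in C2D than in S2D (log2 -2.50, -2.69 to -2.30; -0.46 under plain CPM). Hspa5, the Hsp70 of the reticulum and a central marker of the unfolded protein response, stood at 1396, 644, 1285 and 1158 (log2 -1.12, -1.21 to -1.02, but 0.92 under plain CPM). Its share of the members' UMIs went the other way, from 5.35% (S2D) to 9.20% (C2D). That of Pdia2 went from 29.8 to 2.60% there, which by itself raises the shares of the other members. Dnajc3, a co-chaperone also known as p58IPK, had levels of 907, 183, 851 and 585 (log2 -2.31; -0.27 under plain CPM). Creld2 (330, 86.7, 487 and 400) and Hyou1 (93.7, 24.7, 135 and 128), the latter a nucleotide exchange factor, gave log2 ratios of -1.93 and -1.92, near 0 under plain CPM (0.11 and 0.12). Hsp90b1, the Hsp90 of the reticulum, Manf, a secreted stress-induced factor, and Dnajb11 lay between -1.16 and -1.29 (0.75 to 0.88 under plain CPM). The lectin chaperones Calr and Canx were at -0.94 and -0.65 (1.10 and 1.39 under plain CPM). Dnajb9, which binds Ern1, had nearly the same level in S2D and C2D, 47.5 and 47.3 (log2 2.03 under plain CPM).

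**Figure D2:**
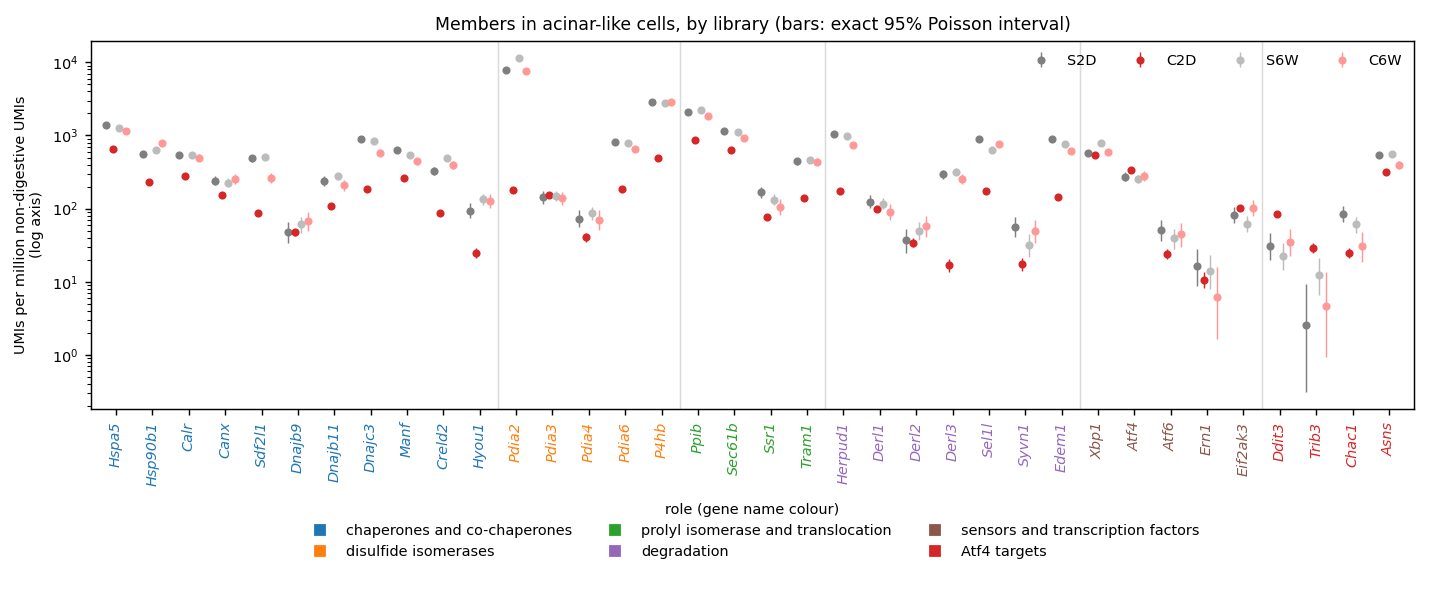
Level of each of the 36 genes in acinar-like cells (UMIs per 1000000 non-digestive UMIs, log axis), with 1 point per library and its exact 95% Poisson interval; gene names are coloured by role. The C2D points lie below the other 3 for Pdia2, Derl3 and Edem1, and above them for Ddit3 and Trib3; under plain CPM Hspa5, Hsp90b1 and 10 other members counted as lower in C2D turn to higher than S2D, but not Pdia2, Derl3 and Edem1.

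In the degradation group 5 of 7 members were at least 2-fold lower and none higher (1 lower, Derl3, and 2 higher under plain CPM). Derl3 (ENSMUSG00000009092, chr10:75893413-75895941), a channel component of secretory cells, had levels of 294 at S2D, 16.9 at C2D, 322 at S6W and 256 at C6W. It was 17.4-fold lower in C2D than in S2D (log2 -4.12, -4.48 to -3.78; -2.08 under plain CPM), the only member besides Pdia2 at least 2-fold lower on both scales. Its relatives Derl1 (125, 98.6, 118 and 90.8) and Derl2 (37.2, 34.5, 49.9 and 58.5) differed less, with log2 ratios of -0.34 and -0.11 (1.70 and 1.93 under plain CPM). Edem1, which takes mannose-trimmed proteins to degradation, stood at 891, 144, 757 and 620, and Herpud1, a scaffold of the ligase complex, at 1064, 172, 995 and 742. Both gave a log2 ratio of -2.63 (-0.59 under plain CPM). Sel1l, the adaptor of the ligase Syvn1, was at 904, 177, 631 and 771 (log2 -2.35; -0.31 under plain CPM). Syvn1 itself was at 56.5, 17.4, 32.0 and 49.3 (log2 -1.70, -2.22 to -1.15, but 0.34 under plain CPM).

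The translocation genes and Ppib, the cyclophilin that isomerises prolines, lay in between. Ppib had levels of 2106, 875, 2250 and 1872 (log2 -1.27, but 0.77 under plain CPM), and its share of the members' UMIs was 8.07% at S2D and 12.5% at C2D. Tram1, a translocon partner, was at 442, 139, 460 and 440 (log2 -1.66, but 0.38 under plain CPM). Sec61b, a subunit of the channel, was at 1157, 633, 1109 and 931 (log2 -0.87, but 1.17 under plain CPM), and Ssr1, of the translocon-associated complex, at 167, 77.3, 133 and 106 (log2 -1.11, but 0.93 under plain CPM). All 4 were at least 2-fold below the median of all genes chosen over both libraries (0.52). Sec61b and Ssr1 were less than 2-fold below the median of genes chosen by S6W (-0.12).

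The sensors and transcription factors had 1 of 4 measured members at least 2-fold lower, Atf6, and none higher on the non-digestive scale (3 higher and none lower under plain CPM). Xbp1 had levels of 574 (S2D), 534 (C2D), 790 (S6W) and 596 (C6W), and Atf4 275, 335, 252 and 282, so S2D and C2D lay close in both on this scale (log2 -0.10 and 0.28, but 1.94 and 2.33 under plain CPM). Within the members' UMIs, Xbp1 went from 2.20% (2.00 to 2.41%) at S2D to 7.63% (7.38 to 7.89%) at C2D, and Atf4 from 1.05% (0.917 to 1.20%) to 4.78% (4.58 to 4.99%). Eif2ak3 stood at 82.2, 101, 62.1 and 102, a log2 ratio of 0.29 (-0.08 to 0.69; 2.33 under plain CPM). Atf6 stood at 51.4, 24.1, 39.5 and 44.6 (log2 -1.09, -1.61 to -0.55, but 0.95 under plain CPM). Ern1 had levels of 16.7, 10.8, 14.1 and 6.16.

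The 4 Atf4 targets split. Ddit3 (ENSMUSG00000025408, chr10:127290774-127296288), a transcription factor of prolonged stress, had levels of 30.8 at S2D, 83.6 at C2D, 22.6 at S6W and 35.4 at C6W, from 24, 490, 24 and 23 UMIs. It was 2.71-fold higher in C2D than in S2D (log2 1.44, 0.85 to 2.10; 3.48 under plain CPM). Trib3, a pseudokinase induced by Ddit3 and Atf4, rested on 2, 171, 13 and 3 UMIs, at levels of 2.57, 29.2, 12.2 and 4.62 (log2 3.51, 1.63 to 6.56; 5.55 under plain CPM). With S6W as the control, the log2 ratios were 1.89 for Ddit3 and 1.25 for Trib3. Cells with a Ddit3 UMI made up 4.88% of acinar-like cells at S2D, 27.5% at C2D, 4.02% at S6W and 4.96% at C6W, against 27.3, 15.5, 36.2 and 19.4% of T-like cells. With cells thinned to 1000 UMIs the acinar-like shares were 0.955, 5.27, 0.456 and 0.840%, the C2D one close to the T-like 4.85%. Asns, which makes asparagine, had levels of 544, 315, 562 and 396 (log2 -0.79, but 1.25 under plain CPM). Chac1, which degrades glutathione, had levels of 84.8, 24.7, 61.2 and 30.8 (log2 -1.78, -2.21 to -1.33, but 0.26 under plain CPM). In level, Asns and Chac1 thus stood lower in C2D, against Ddit3 and Trib3 higher, on the non-digestive scale, while within the members' UMIs Asns took 2.09% at S2D and 4.50% at C2D.

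**Figure D3:**
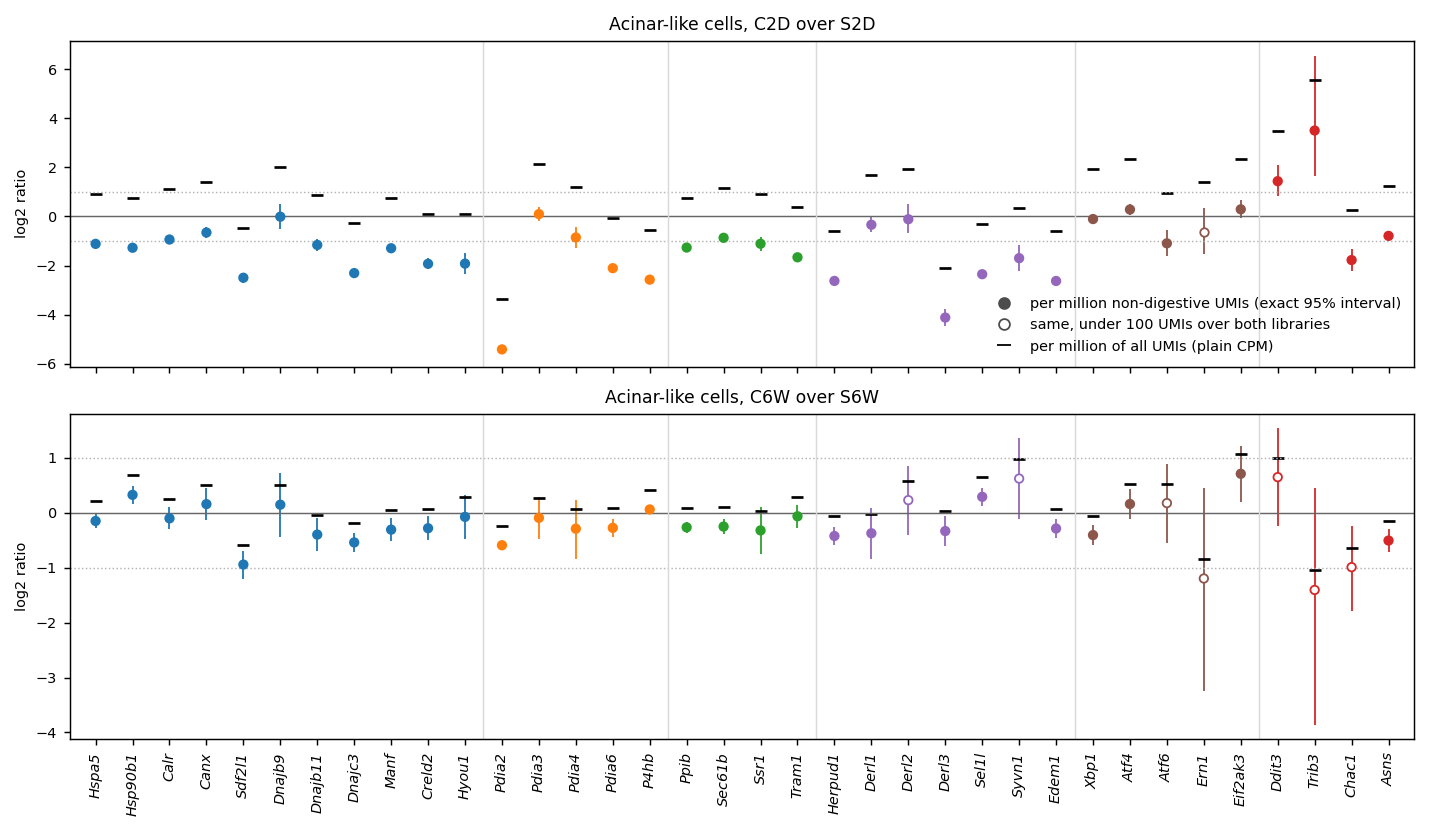
Log2 ratio of each member in acinar-like cells, caerulein over saline, at 2 days and at 6 weeks, on the non-digestive scale with exact 95% intervals, beside the plain CPM value; other marks show members under 100 UMIs. At 2 days the non-digestive ratios run from -5.42 (Pdia2) to 3.51 (Trib3), and at 6 weeks no measured member reaches 2-fold on it.

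The C2D acinar-like cells were not uniform in these genes. Cluster 17, led by Krt8, Krt18, Clu and Reg3b, had 28.6% digestive UMIs and a Krt19 level of 695, and cluster 31, led by Reg genes, 55.4% and 196. Over the 34 members with at least 100 UMIs in the 2 clusters together, 4 were at least 2-fold higher in cluster 17 and 9 lower, with a median log2 ratio of -0.48. Of 4791 genes, 38.2% were higher and 1.92% lower, with a median of 0.78. On plain CPM it was 9 higher and 4 lower with a median of 0.20 (74.6% higher and 0.731% lower of all genes, median 1.46), and per cell 10 and 2, so the sign of the members' median turns. Those higher on the non-digestive scale were Trib3 (40.8 against 9.31, log2 2.13, 1.45 to 2.88), Atf6 (32.7 against 9.31), Eif2ak3 (134 against 43.3) and Ddit3 (108 against 42.4, log2 1.35, 1.02 to 1.69). All 4 had under 100 UMIs in cluster 31, so they passed the minimum only through cluster 17, where they are high. Among those lower were Pdia2 (59.2 against 383, log2 -2.70), P4hb (251 against 894, log2 -1.83), Creld2 and Sdf2l1. With cluster 31 alone, the C2D over S2D log2 ratio of Ddit3 was 0.46, against 1.44 with all acinar-like cells. When doublets were removed at the rate expected for the loading, 379 of the cells of cluster 17 and 377 of those of cluster 31 were kept, but after new clustering and naming 463 C2D cells were acinar-like, and Ddit3 stood at 0.77 with 153 UMIs. Trib3 stood at 2.43 in that setting, from 2 and 42 UMIs, which is under the minimum of 100.

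RNA of other cells moved with the same comparison. In acinar-like cells, Lyz2, of macrophages, had levels of 11.6, 239, 22.6 and 36.9 in S2D, C2D, S6W and C6W, and C1qb, of macrophages too, 7.70, 81.9, 7.53 and 12.3. Igkc, of B and plasma cells, went the other way, at 1321, 8.70, 218 and 674, as did Dcn, of fibroblasts, at 457, 17.4, 153 and 354. Cd3e, of T cells, was at 0 to 2.57. Mitochondrial genes gave 0.480, 1.21, 0.292 and 0.613% of the UMIs. Plasma-like cells held Pdia2 at a level of 8.02 at S2D, against 7785 in acinar-like cells, and macrophage or monocyte-like cells of C2D held Ddit3 at 34.2, against 83.6. The part of RNA of other cells in the members' differences was not tested.

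The 7 lists of neighbouring pathways gave medians below that of all genes in the same comparison, 0.52 with genes chosen over both libraries. With genes chosen by S6W the median of all genes was -0.12, and list medians on that choice are not given. As a reference for the counts of each list, 30.5% of the 5120 measured genes counted as higher in C2D and 7.56% as lower on the non-digestive scale. Under plain CPM most of those 5120 counted as higher, as given above, so a large higher count on that scale does not by itself set a list apart. The oligosaccharyl transferase, which attaches sugars, had 2 of 12 measured at least 2-fold lower and none higher (median -0.49, but 1.55 under plain CPM), led by Magt1 at -2.28. Other folding and redox genes had 9 lower and 1 higher of 22 (median -0.66, but 1.38 under plain CPM), with Prdx4, a peroxiredoxin of the reticulum, at -3.40 (levels 1292, 122, 1285 and 990) and Ero1lb, the oxidase that recharges disulfide isomerases, at -3.27 (765, 79.5, 740 and 500). Other translocation and signal peptidase genes had 8 lower and 1 higher of 19 (median -0.85, but 1.19 under plain CPM). Other degradation genes had 4 lower and 1 higher of 18 (median -0.36, but 1.68 under plain CPM), and genes of transport between reticulum and Golgi 6 lower and 1 higher of 24 (median -0.38, but 1.66 under plain CPM). Other Atf4 and integrated stress genes had 5 higher and 4 lower of 29 (median 0.09), but 26 higher and none lower under plain CPM (median 2.14). Gdf15, a stress-induced hormone, stood there at 3.94 (2.81 to 5.39; levels 7.70, 118, 18.8 and 16.9) and Fgf21 at -2.31 (levels 144, 29.0, 110 and 86.2; -0.27 under plain CPM). Of 8 measured further regulators 1 was higher and 1 lower (7 higher and none lower under plain CPM): Eif2s1, the subunit that Eif2ak3 phosphorylates, at 1.61 (3.65 under plain CPM), and Bhlha15, a driver of secretory maturation, at -1.89 (0.15 under plain CPM). Eif2s1, Gdf15 and Bbc3, which stood at 2.66 among the Atf4 and integrated stress genes, passed the minimum only through C2D. Eif2s1 had 24 UMIs at S2D and 552 at C2D, Gdf15 6 and 693, and Bbc3 8 and 381.

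After 6 weeks the acinar-like values lay close together. Of 29 measured members none was at least 2-fold higher or lower in C6W than in S6W, with a median of -0.27 (0.08 under plain CPM), against 2.98% higher and 0.416% lower of 1442 genes. The largest differences were Sdf2l1, at a level of 265 against 509 (log2 -0.94, -1.20 to -0.69), and Eif2ak3, at 102 against 62.1 (log2 0.71, 0.20 to 1.22). Pdia2 was at 7589 against 11430 (log2 -0.59, -0.64 to -0.54), close in size to the 0.55 of S6W over S2D, the gap between the saline libraries. Between those saline libraries none of 30 members reached 2-fold, against 0.525 and 1.84% of 1523 genes, and the median was -0.02.

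Outside acinar-like cells, few of the genes differed by 2-fold at 2 days. Ductal-like cells had 2 of 33 measured members at least 2-fold higher and 1 lower, against 4.14 and 7.42% of 9011 genes. Sdf2l1 had a level of 5.13 at S2D and 25.3 at C2D there (log2 2.30, 1.73 to 2.89), the opposite of its direction in acinar-like cells on either scale. Asns was at 6.01 and 14.8. Fibroblast-like cells had 5 of 33 lower and none higher, against 7.53 and 7.69% of 9899 genes. Hspa5 stood at 1871 and 921 (log2 -1.02), Sdf2l1 at 58.7 and 15.7 (log2 -1.90) and Hyou1 at 21.1 and 7.55 (log2 -1.48), while P4hb, at 236 and 432, was higher without reaching 2-fold (log2 0.87). With S6W as the control 9 of 33 were lower and none higher, against 7.6 and 7.47% of 10104 genes, and the log2 ratios of Hspa5, Sdf2l1 and Hyou1 were -0.68, -3.06 and -2.20. The saline libraries themselves differed by at least 2-fold in 2 members, Sdf2l1 (58.7 at S2D and 130.5 at S6W) and Pdia6 (288 and 590), against 0.604% higher and 0.498% lower of 9433 genes in S6W. Macrophage or monocyte-like cells had 3 of 33 lower and 1 higher, against 8.21 and 12.1% of 9243 genes. Herpud1 was at 375 and 109 (log2 -1.79), and Eif2ak3 was the 1 higher, from 1 UMI at S2D and 220 at C2D (log2 2.08, -0.41 to 7.39). Counting error there allows either direction. No member reached 2-fold in dendritic-like cells (29 measured; 3.96 and 2.88% of 4621 genes), T-like cells (21 measured; 3.26 and 1.97% of 2483) or NK-like cells (9 measured; 1.54 and 4.26% of 845).

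Pdia2 was also counted as lower in ductal-like, fibroblast-like and macrophage or monocyte-like cells, by log2 -3.21, -3.40 and -4.66. Free RNA moved with it: T-like and B-like cells held 190 digestive UMIs per cell at S2D and 50.9 at C2D, and 124 Pdia2 UMIs over 936 cells at S2D but 0 over 120 at C2D. The part of free RNA in the Pdia2 differences of these 3 classes was not tested. Over all 36 genes such RNA came to 0.484 to 0.820 of the 29.6 to 42.4 member UMIs of a T-like or B-like cell.

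At 6 weeks no more than 2 members passed in any of the 5 classes. Ductal-like cells had none of 29 (0.293% higher and 0.0977% lower of 8189 genes), B-like cells none of 28 (0.61 and 0.697% of 3441) and macrophage or monocyte-like cells none of 23 (3.04 and 5.54% of 2924). Fibroblast-like cells had 1 lower of 34, Pdia2 (0.982% lower and 0.385% higher of 9877 genes). T-like cells had 2 lower of 17, Dnajb9 (log2 -1.02) and Herpud1 (log2 -1.25), against 1.81% lower and 0.745% higher of 1878 genes. Both already differed between the saline libraries, with log2 ratios of S6W over S2D of 1.06 and 1.15. With S2D as the control of C6W, 0 of 22 measured members reached 2-fold in T-like cells (7 higher and 27 lower of 2802 genes).

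Set against ductal-like cells of the same library, acinar-like cells had 10 of 32 measured members at least 2-fold higher in each of the 4 libraries and 2 lower, against 3.17 and 33.4% of 4512 genes, on the non-digestive scale. On plain CPM it was 5 higher and 8 lower, and with TMM 18 and none. The shares of all genes with those scalings are not given, so these counts cannot be set against all genes. Sdf2l1, Creld2, Hyou1, Pdia2, P4hb, Tram1, Derl3, Sel1l, Edem1 and Asns were higher, 5 of them (Pdia2, Derl3, Sel1l, Edem1, Asns) also on plain CPM. For Derl3 the log2 ratios were 7.27, 5.15, 9.59 and 8.04 in S2D, C2D, S6W and C6W, and for Edem1 5.07, 2.62, 5.43 and 4.98. Dnajb9 (-2.11, -1.30, -2.04 and -1.89) and Pdia3 (-1.07, -1.23, -1.20 and -1.25) were lower in all 4, which TMM did not call. For each of the 10 higher genes the C2D ratio was the smallest of the 4 on this scale. The classes were defined by other genes of the same cells, so this is a description.

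Plasma-like cells held a different part of the list at high levels. Set against B-like cells, from which plasma cells arise, 24 of 31 measured members were at least 2-fold higher in both libraries and none lower. The median log2 ratio was 1.81, and of 3394 genes 6.54% were higher and 26.5% lower. Plain CPM gave 24 members higher and TMM 26, but the shares of all genes with those scalings are not given. Derl3 stood at 5.85 (S2D) and 5.23 (C6W), Creld2 at 5.32 and 3.88, Edem1 at 4.07 and 3.42, Xbp1, which plasma cells are known to require, at 3.94 and 3.52, and Hsp90b1 at 3.37 and 2.96. The Atf4 arm was mixed. Atf4 was at -0.32 and -0.38, Ddit3 at -0.45 and -0.31, and Eif2ak3 at -0.40 and -1.26. Chac1 (160 against 7 UMIs, log2 5.22) and Asns (126 against 26, log2 2.98) were higher in plasma-like cells of S2D, and in C6W they had under 100 UMIs over both classes. Plasma-like cells of C6W held Dcn at a level of 382, Lyz2 at 75.6 and C1qb at 59.6, against 6.36, 0.277 and 1.94 at S2D. Cd3e was at 0 and 0.277, and Krt19 at 0 in both. The part of RNA of other cells in these ratios was not tested.

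Single members also differed between the secretory classes. Of 33 members measured in S2D and C6W, 5 were at least 2-fold higher in acinar-like than in plasma-like cells in both libraries and 6 lower, against 17.6 and 22.5% of 1749 genes. On this scale, with immunoglobulin genes in the totals, neither count was a larger part of the members than of all genes, so the list as a whole did not stand out on it. Immunoglobulin genes fill the plasma-like totals, and without them it was 3 higher and 16 lower, while plain CPM gave 2 and 28. The shares of all genes on those 2 scales are not given, so these counts cannot be set against all genes. Pdia2 (7785 against 8.02 at S2D), P4hb (2907 against 230), Asns (544 against 34.9), Sel1l and Tram1 were higher in acinar-like cells. Hsp90b1 (560 against 3970 at S2D, 793 against 3091 at C6W), Pdia4 (73.2 against 1183, and 70.8 against 798), Calr, Dnajb9, Manf and Pdia3 were lower. Among the disulfide isomerases, Pdia2 and P4hb were thus on the acinar-like side and Pdia3 and Pdia4 on the plasma-like side. Derl3 was high in both classes, at 294 and 256 in acinar-like and 459 and 348 in plasma-like cells of S2D and C6W, against a median of 3.97 over the other classes at S2D.

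**Figure D4:**
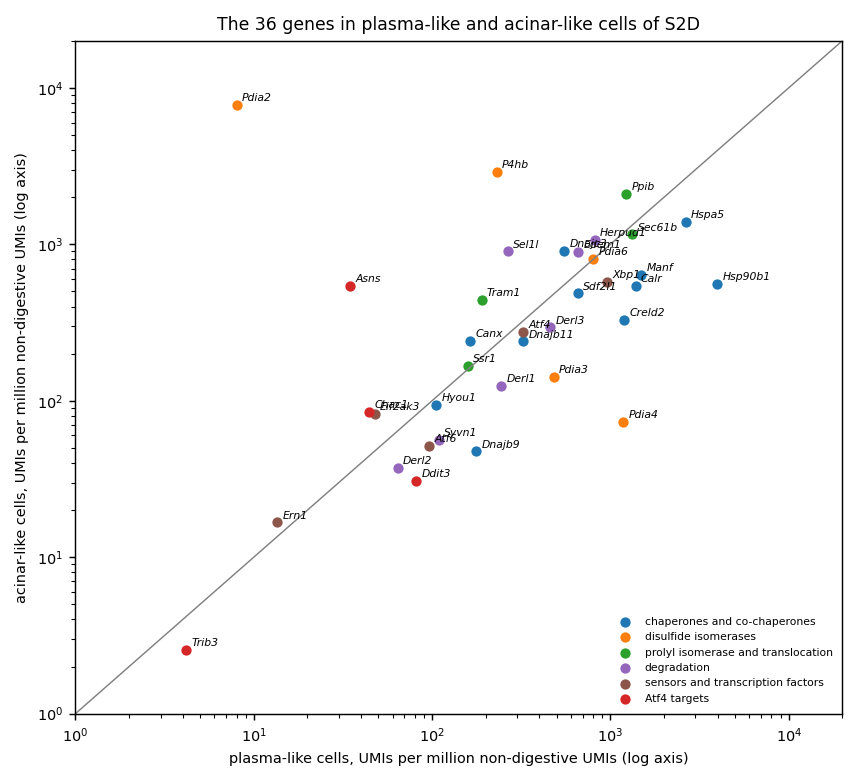
Level of each of the 36 genes in acinar-like (vertical axis) against plasma-like cells (horizontal axis) of S2D, in UMIs per 1000000 non-digestive UMIs on log axes, coloured by role. Pdia2 (7785 against 8.02), P4hb and Asns lie on the acinar-like side, and Hsp90b1 (560 against 3970) and Pdia4 on the plasma-like side.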

How the data were processed

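The deposited matrices hold raw counts (UMIs per gene and barcode), per the labels from DAPI-negative sorted cells of 1 library per group, and the submitters' processing notes list FastQC, mm10 and Cell Ranger 3.0.2. Nothing in the labels says that libraries are separate mice. Cells were barcodes of 500 UMIs and 200 genes or more with a mitochondrial share up to 20%, less those called doublets by Scrublet (38, 19, 15 and 32 in S2D, C2D, S6W and C6W; 0.408% in C2D, so an alternative removed the expected 0.8% per 1000 barcodes). Counts were scaled to 10000 per cell and log-transformed, 2000 variable genes (without the 36 genes and the neighbouring pathway lists) gave 40 components, and 15 neighbours gave Leiden clusters at resolution 1. Clusters were named from marker lists. A cluster of 96 cells first named erythroid was set aside after its leading genes were seen.

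UMIs were summed per class and library and divided by totals without 37 digestive genes. Log2 ratios have exact conditional binomial intervals, levels Poisson and shares Clopper-Pearson ones, all at 95%. Ratios over time need 50 cells in both libraries, levels 10 cells, and a ratio against 0 UMIs uses 3 counts. At least 2-fold counts as higher or lower; no p-value was computed. The text accounts for all 36 members, and names up to 3 genes of each neighbouring list, those with the largest ratio. The members, lists and tests were chosen with earlier results of these data known. The comparison with the median of all genes, the choice of genes by S6W, S6W as the control at 2 days, clusters 17 and 31 alone and totals without immunoglobulins were added after the values were seen. Alternatives were other scalings (plain CPM, TMM, DESeq2 size factors, UMIs per cell), count minimums, depth, free RNA, filters, doublets, clustering and controls. The calculation was tested on simulated data. Coordinates came from GENCODE vM21. Software was Python 3.11.15, scanpy 1.11.5, numpy 2.4.6, scipy 1.17.1, pandas 2.3.3, matplotlib 3.10.9, R 4.3.3, edgeR 4.0.16 and DESeq2 1.42.0.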

Additional observations from a re-analysis of the deposited data

Results flagged for a closer look

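Sdf2l1 moved in opposite directions in epithelial classes at 2 days: the log2 ratio of C2D over S2D was 2.30 in ductal-like cells, from 35 and 106 UMIs at S2D and C2D, and -2.50 in acinar-like cells (-0.46 under plain CPM). Eif2ak3 was at 2.08 in macrophage or monocyte-like cells, from 1 UMI at S2D, and at -1.04 in fibroblast-like cells, from 132 and 121 UMIs. Each class is 1 library per group, so neither difference was tested.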

How the results depend on the processing

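No paired analysis was possible because each group is 1 library and the groups share only replicate number 1. Of 283 alternative values of counts and percents, 207 stayed near the main value and 76 moved. Of 83 medians 6 reversed, and of 791 ratios of single members 24 reversed.

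Of all 5120 genes in acinar-like cells at 2 days, 4753 were higher under plain CPM and 4767 under UMIs per cell, and 27 lower under each. For the members, the counts of higher and lower (2 and 21) became 14 and 2 under both, with medians of 0.88 and 0.91. The higher count was 1 with genes of 400 UMIs or more and 0 with thinned cells, with doublets by expected rate (Trib3 at 2.43, under 100 UMIs), with cluster 31 alone or with genes of 100 UMIs in S6W, which leave out Ddit3 and Trib3. The lower count was 12 with thinned cells. The ratios that reversed under plain CPM and per cell were Hspa5 (0.92 and 0.95), Hsp90b1 (0.77 and 0.79), Dnajb11 (0.88 and 0.91), Manf (0.75 and 0.77), Creld2 (0.11 and 0.14), Hyou1 (0.12 and 0.15), Ppib (0.77 and 0.80), Ssr1 (0.93 and 0.96), Tram1 (0.38 and 0.40), Syvn1 (0.34 and 0.37), Atf6 (0.95 and 0.97) and Chac1 (0.26 and 0.29). These alternatives divide by totals that include digestive UMIs, or by cells. At 6 weeks (0 and 0) the higher count was 1 under plain CPM, where the median reversed to 0.0814, and the lower count 1 under TMM, DESeq2 factors and per cell and 2 at a minimum of 1 UMI.

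Over the 6 other classes at 2 days (3 higher, 9 lower) the higher count was 5 (TMM, DESeq2), 38 (per cell), 0 (minimum 400) and 11 (minimum 1), and the lower count 3 (per cell), 4 (minimum 400), 22 (minimum 1) and 5 (thinned). In fibroblast-like cells the lower count of 5 was 9 with S6W as the control. Over the 5 at 6 weeks (0 and 3) the higher count was 1 (per cell, minimum 20) and 4 (minimum 1), and the lower count 1 (TMM, DESeq2, thinned), 0 (minimum 400) and 5 (minimum 1).

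Acinar-like over ductal-like (10 and 2) gave 5 and 8 under plain CPM, 18 and 0 under TMM and DESeq2, 3 and 12 per cell, and 3 and 0 thinned; the higher count was 6 at a minimum of 400, and the lower 0 against the median of other classes. Its median (1.56) reversed to -0.66 under plain CPM and -0.63 per cell. Plasma-like over B-like (24 and 0) gave 3 higher with thinned cells, and 1 lower when doublets followed the expected rate or 1 UMI sufficed. Acinar-like over plasma-like (5 and 6) gave 2 and 28 under plain CPM, 1 and 30 per cell, 2 and 1 thinned (median reversed to 0.23), and 3 and 16 without immunoglobulins, and the lower count was 3 with doublets kept and 12 with doublets by expected rate. Shares of all genes are not given beside these alternative counts between classes.

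The members' percent of acinar-like UMIs with doublets by expected rate, thinned and of all UMIs was 2.70, 2.71 and 0.370 (S2D), 0.837, 0.727 and 0.408 (C2D), 3.03, 2.76 and 0.402 (S6W; 2.87 with the strict filter) and 2.40, 2.17 and 0.412 (C6W). In plasma-like cells of S2D it was 2.23 with doublets kept, 2.41 by expected rate, 2.21 thinned and 3.88 without immunoglobulins, the last being 3.02 at C6W. The causes of these moves were not tested beyond what each alternative's construction gives. Depth limits the members with under 100 UMIs in acinar-like cells of S2D, which are Trib3 (2 UMIs), Ern1 (13), Ddit3 (24), Derl2 (29), Dnajb9 (37), Atf6 (40), Syvn1 (44), Pdia4 (57), Eif2ak3 (64), Chac1 (66), Hyou1 (73) and Derl1 (97).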
